A study of Mus musculus with 8 samples.

Results

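The matrix metalloproteinases (MMPs), the ADAMTS proteases and the tissue inhibitors of metalloproteinases (TIMPs) were examined in adipose-derived stem cells (ADSCs) of the mouse grown in 2D or in 3D. The members were all genes listed under the symbols Mmp, Adamts or Timp1 to Timp4 with a number, and came to 46 of 24346 genes. These were 23 MMP, 19 ADAMTS and 4 TIMP genes. Total RNA was sequenced from primary cultures of gonadal fat of wild-type adult male BALB/c mice, with no treatment named beyond the culture. The 4 2D libraries came from mice 2, 3, 4 and 5, which were grown in conventional 2D medium. The 4 3D libraries came from mice 1, 4, 5 and 7, whose cells were embedded in Matrigel, a basement membrane extract. The study grew 3D cultures with several shares of medium conditioned by cells that make Wnt3a and R-Spondin1, and also without it. The Wnt3a and R-Spondin1 shares used for these libraries are not given in the labels. Mice 4 and 5 were sampled in both cultures. The library from mouse 1 is 3D by its title and group, but its short name does not carry the culture type as the others do. That name also holds a further number whose meaning is not given. Matrix, medium and growth form changed together between the culture types and cannot be told apart.

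MMPs are zinc-dependent enzymes that cut collagens, basement membrane and other matrix proteins. Some are secreted as inactive proenzymes and others, the membrane-type MMPs, are anchored at the cell surface. ADAMTS proteases are secreted relatives that carry thrombospondin repeats, and they trim proteoglycans such as versican or process procollagens. TIMPs bind the active site of MMPs and of some ADAMTS proteases and block them. Cultured stromal cells of fat are known to make MMP2, MMP14 and the TIMPs while they build and remodel their matrix.

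The deposited values are FPKM values (fragments per kilobase of transcript, scaled to the mapped fragments), which relate a level to transcript length. They were quantile normalized over the 18862 genes above 0 in at least 1 library and are given as normalized FPKM. Differences were fitted with limma on log2(FPKM + 1), a scale that understates the change of genes with low levels, and its p-values were adjusted over all genes tested. A gene was called at an adjusted p below 0.05. The spacing of low values gave an estimated depth of 14.5 M to 17.3 M fragments per library, so that a transcript of 2 kb at 1 FPKM rests on 29.0 to 34.6 fragments. Pearson's correlation across genes lay between 0.932 and 0.974 within each culture type and between 0.758 and 0.823 between them.

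The labelled cell type, mesenchymal stem cells, was checked with marker lists. The 8 stromal markers were all lower in 3D, and their summed level ranged from 1551 to 3432 normalized FPKM in 2D and from 0.197 to 0.300 in 3D. Pdgfrb and Dcn were listed at 0 in every 3D library. Of 9 epithelial markers, 8 were higher in 3D, with a summed level of 2508 to 3042 normalized FPKM against 31.8 to 694 in 2D. The 6 mesothelial markers summed to 846 and 2028 normalized FPKM in the 2D libraries from mice 3 and 4, to at most 1.99 in the other 2D libraries and to between 2.57 and 34.0 in 3D. The epithelial sum was also higher in mice 3 and 4 (176 and 694) than in mice 2 and 5 (both 31.8) within 2D. In every 2D library this sum was nearly all keratins. Krt8 (26.8 and 261) and Krt18 (114 and 256) were high in mice 3 and 4, against at most 0.0603 and 2.89 in mice 2 and 5. Epcam was at 0 in the 2D libraries from mice 3 and 4, and Cdh1 was at 0.379 and 0.716. The 5 smooth muscle markers were all lower in 3D, with sums of 1.34 to 1.87 normalized FPKM, against 5013 and 5151 in the 2D libraries from mice 2 and 5 and 3111 and 1694 in those from mice 3 and 4. The 3D libraries therefore lacked the stromal markers of their label, and the 2D libraries fell into pairs by the mesothelial markers. The part of these cell types in the values of the proteases and inhibitors was not tested. In bulk RNA, fewer cells of a type and less RNA per cell cannot be told apart.

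More of the proteases and inhibitors were lower than higher in 3D. Of the 46 genes, Mmp20 and Adamts19 were listed at 0 in every library, and 44 were tested. By limma's adjusted p, 24 genes were lower in 3D, which is 54.5% of those tested, against 20.3% of all genes. It called 4 genes higher in 3D, or 9.09%, against 21.2% of all genes. By family, 12 MMP, 9 ADAMTS and 3 TIMP genes were lower and 2 MMP, 2 ADAMTS and 0 TIMP genes were higher. The median log2 difference between 3D and 2D was -0.60 over the 44 genes and 0.00 over all genes tested. In 23 of the 44 genes the lowest 2D value exceeded the highest 3D value, which held for 20.9% of all genes. In 3 genes the lowest 3D value exceeded the highest 2D value, against 21.6% of all genes.

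With the mouse as a block, which rests on mice 4 and 5 and leaves 1 residual degree of freedom, 0 members passed the adjusted threshold in limma, and 17 lower and 4 higher members had an unadjusted p below 0.05. The smallest adjusted p of a member was then 0.111. Without the 2D libraries from mice 3 and 4, 23 members were lower and 4 were higher, but these were not all the same genes. By limma's adjusted p, the calls of Timp2 (0.0508), Mmp12 (0.0661) and Mmp7 (0.0826) were then lost. Mmp3 (9.6e-04) was then called lower and Adamts9 (0.0136) higher.

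**Figure D1:**
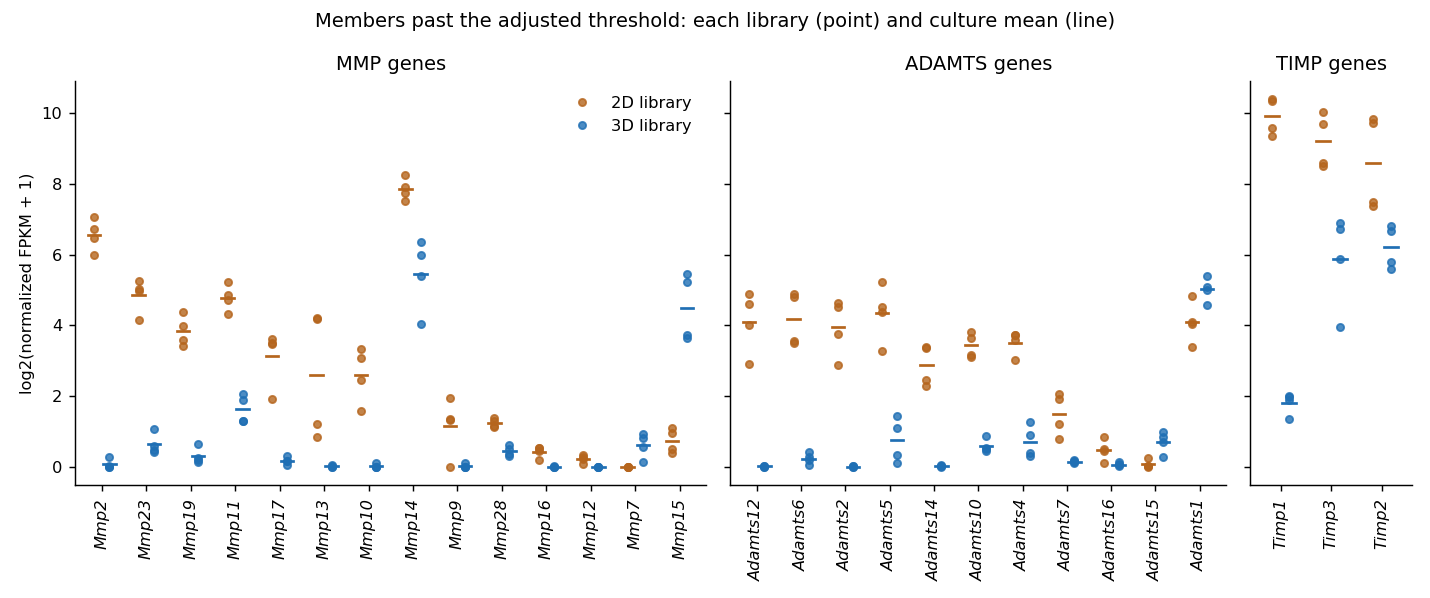
Levels of the 28 members with an adjusted p below 0.05, as log2(normalized FPKM + 1), with 1 point per library (4 2D, 4 3D) and a line at the mean of each culture type. Timp1 and Mmp2 show the widest gaps between the culture types, and Mmp15, Mmp7, Adamts15 and Adamts1 are the 4 genes with the higher mean in 3D.

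Where the values of 4 libraries are listed, they stand in the order of mice 2, 3, 4 and 5 for 2D and of mice 1, 4, 5 and 7 for 3D.

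The inhibitors held the highest summed level of the 3 families in 2D, and Timp1, Timp2 and Timp3 were lower in 3D. Timp1 encodes a secreted inhibitor of most MMPs that is typical of activated fibroblasts. It was at 1339, 648, 767 and 1294 normalized FPKM in 2D and at 1.58, 2.95, 2.98 and 2.67 in 3D. This gave a log2 difference of -8.11 (standard error 0.27, limma's adjusted p = 7.9e-07). On the log2(FPKM + 1) scale this was the largest difference among the members. The lowest 2D library of Timp1 lay far above all 3D libraries. Over the alternative settings the log2 difference reached -9.40 for Mmp2 and -8.55 for Timp1. Timp1 lies on chromosome X (GRCm38, 20870166 to 20874735) inside Syn1, which is on the opposite strand.

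Timp3, whose product stays bound to the matrix and also blocks ADAMTS4 and ADAMTS5, was at 382, 1039.7, 827 and 363 normalized FPKM in 2D and at 14.6, 57.9, 106 and 118 in 3D. It had a log2 difference of -3.33 (standard error 0.69, limma's adjusted p = 0.00615). With only mice 4 and 5, limma's adjusted p was 0.0506. Timp2, which inhibits MMP2 and also takes part in its activation by MMP14, was at 164, 837, 905 and 179 normalized FPKM in 2D and at 47.5, 54.7, 101 and 111 in 3D. Its log2 difference was -2.38 (standard error 0.66, limma's adjusted p = 0.0218). Both genes were lowest in the 3D library from mouse 1, and their 2D levels were high in mice 3 and 4 and lower in mice 2 and 5. Limma's adjusted p of Timp2 rose to 0.0501 without the 2D library from mouse 3, to 0.0514 and 0.0537 without the 3D libraries from mice 1 and 4, and to 0.0508 without the 2D libraries from mice 3 and 4, where the log2 difference was -1.21. With only mice 4 and 5 it was 0.164. Timp4 was listed at 0 in 7 libraries and at 0.0536 normalized FPKM in the 3D library from mouse 7, and no difference could be detected at this depth.

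Timp2 and Timp3 were the main inhibitors in 3D. Timp1 made up 25.7% to 71.0% of the summed TIMP level in 2D and 1.15% to 2.55% in 3D. Timp2 held 47.4% to 74.6% of the sum in 3D and Timp3 held 23.0% to 50.9%. The summed TIMP level was 2186 ± 376 normalized FPKM in 2D, against 155 ± 79.2 in 3D (SD, n = 4). The summed MMP level was 469 ± 72.6 in 2D and 80.3 ± 30.2 in 3D, and the summed ADAMTS level was 127 ± 10.6 and 45.7 ± 13.5 (SD, n = 4). The ratio of the TIMP sum to the MMP sum lay between 3.48 and 5.48 in the 2D libraries and between 0.939 and 4.12 in the 3D libraries. The ranges of this ratio overlapped through the 3D library from mouse 7, while each of the 3 sums was lower in every 3D library than in every 2D library.

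**Figure D2:**
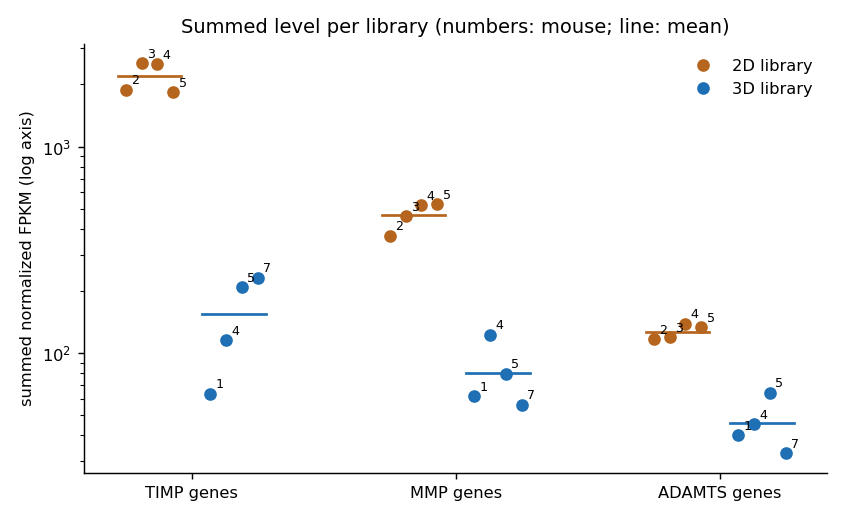
Summed normalized FPKM (log axis) of the TIMP, MMP and ADAMTS genes in each library, labelled by mouse, with a line at the mean of each culture type. TIMP sums range from 1837 to 2524 in 2D and from 63.7 to 232 in 3D, and no 3D library reaches a 2D library for any family.

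The gelatinases cut denatured collagen and type IV collagen of the basement membrane. Mmp2 (chromosome 8, 92827291 to 92853420) was at 88.5, 104, 62.7 and 133 normalized FPKM in 2D. In 3D it was at 0.205 in mouse 1, listed at 0 in mice 4 and 5 and at 0.0206 in mouse 7. The log2 difference was -6.49 (standard error 0.22, limma's adjusted p = 8.6e-07), and the MMP with the second highest mean in 2D was thus near 0 in 3D. Mmp9, the gelatinase best known from leukocytes, was at 2.89, 1.504, 0.00462 and 1.55 normalized FPKM in 2D and no higher than 0.0708 in 3D. Its libraries overlapped because the 2D library from mouse 4 lay near 0. It had a log2 difference of -1.14 (standard error 0.37, limma's adjusted p = 0.0397), and the adjusted p was between 0.0691 and 0.0887 when any library other than the 2D library from mouse 4 was left out. Without that library it was 6.0e-04, and with only mice 4 and 5 it was 0.411. The neutrophil markers S100a9 and Elane were listed at 0 in every library, and the neutrophil list summed to between 0 and 4.31 normalized FPKM.

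The membrane-type MMPs split in direction. Mmp14 (MT1-MMP, a surface collagenase that activates pro-MMP2) was the most abundant protease of the 46 genes in 2D, at 181, 239, 215 and 304 normalized FPKM. In 3D it was at 15.5, 81.6, 62.3 and 40.9. This gave a log2 difference of -2.41 (standard error 0.47, limma's adjusted p = 0.00487). Mmp14 fell but stayed well above 0 in 3D, where it held 25.0% of the summed MMP level in mouse 1 and 66.3% to 78.1% in the other libraries.

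Mmp15 (MT2-MMP, chromosome 8, 95352268 to 95375080), another transmembrane protease that can activate pro-MMP2, moved the opposite way. It was at 0.420, 1.13, 0.305 and 0.928 normalized FPKM in 2D and at 42.6, 36.1, 12.2 and 11.4 in 3D. The log2 difference was 3.77 (standard error 0.46, limma's adjusted p = 4.97e-04), and it stayed between 3.50 and 4.08 when any library was left out. The 3D libraries from mice 1 and 4 stood above those from mice 5 and 7, and all exceeded the highest 2D library. Mmp15 made up 68.6% of the summed MMP level in the 3D library from mouse 1 and 15.3% to 29.3% in the other 3D libraries, against at most 0.244% in 2D.

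Among the other membrane-type genes, Mmp17, which is tethered by a lipid anchor, fell from a mean of 8.64 ± 3.93 to 0.132 ± 0.0841 normalized FPKM (± SD, n = 4). Its library values were 11.3, 10.1, 2.79 and 10.4 normalized FPKM in 2D and 0.243, 0.132, 0.114 and 0.0394 in 3D. Its log2 difference was -2.95 (standard error 0.38, limma's adjusted p = 6.1e-04), and the 2D library from mouse 4 stood at 2.79 against 10.1 to 11.3 in the others. Mmp16, another membrane-type gene, was lower in 3D, with 0.375, 0.449, 0.141 and 0.445 normalized FPKM in 2D and 0, 0, 0 and 0.0122 in 3D (log2 difference -0.42, limma's adjusted p = 0.00306). With only mice 4 and 5, limma's adjusted p was 0.0702 for Mmp17 and 0.153 for Mmp16. Mmp24 was between 0.155 and 0.723 normalized FPKM in the 8 libraries, and its groups overlapped. The 95% interval of its log2 difference ran from -0.40 to 0.16. Mmp25 was above 0 only in the 3D library from mouse 4, at 0.0150 normalized FPKM.

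**Figure D3:**
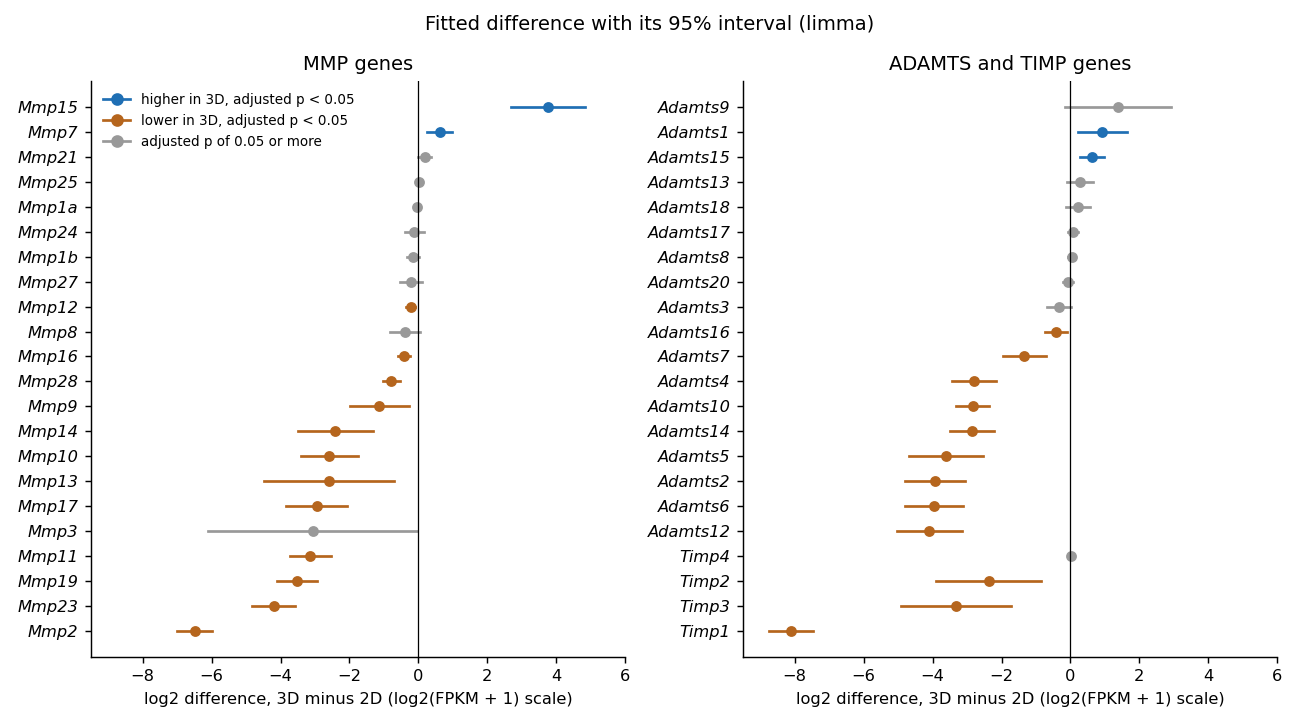
Log2 difference between 3D and 2D (x axis, log2(FPKM + 1) scale) for the 44 members tested, with the 95% interval of limma's fit. The points run from -8.11 for Timp1 to 3.77 for Mmp15, and the interval of Mmp3 is the widest, from -6.10 to -0.04.

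The collagenases, the matrilysin gene and the stromelysins other than Mmp11 lie together on chromosome 9, in a cluster of 10 MMP genes that spans 427 kb (GRCm38, 7272514 to 7699585) from Mmp13 to Mmp7. Of the 9 cluster genes tested, 3 were lower and 1 was higher in 3D, against 20.3% and 21.2% of all genes. The upstream sequences of the cluster were compared with those of the other members. RefSeq windows of 250 bases before the transcript start were searched on both strands for the AP-1 letters TGANTCA and the TATA letters TATAAA, which do not overlap in these windows. A window was found for 32 of the 46 genes. Of the 10 cluster genes, 8 held the AP-1 letters and 7 held both motifs, counting a gene if any of its windows did. Mmp12 held the AP-1 letters only before a RefSeq start that lies 2993 bases from its annotated start. The window of its other RefSeq start, 16 bases from the annotated one, held neither motif. Of 22 members with a window elsewhere in the genome, 0 held the AP-1 letters and 2, Adamts1 and Mmp21, held the TATA letters. Among these, the windows of Adamts20 and Mmp11 stand before starts that lie 61068 and 3994 bases from the annotated ones. The 14 members without a window all lie outside the cluster, among them Mmp2, Mmp9, Adamts4 and Adamts5, and were not compared. Among all 32851 windows of this length, 6.75% held the AP-1 letters, 12.4% the TATA letters and 1.21% both. The G and C content of the windows was 37.2% to 53.2% in the cluster and 53.6% to 79.2% in the other members, with a median of 52.4% over all windows.

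The windows below are shown because they belong to the 3 cluster genes with the largest differences in level, to Mmp7, which moved the opposite way, and to Mmp15, which rose and holds neither motif. Each is from RefSeq, runs 5′ to 3′ on the strand of the gene and ends at the base before the RefSeq transcript start. Capitals mark the matches to TGANTCA and TATAAA.
Mmp3 (GRCm38.p6, chr9:7445572-7445821, plus strand): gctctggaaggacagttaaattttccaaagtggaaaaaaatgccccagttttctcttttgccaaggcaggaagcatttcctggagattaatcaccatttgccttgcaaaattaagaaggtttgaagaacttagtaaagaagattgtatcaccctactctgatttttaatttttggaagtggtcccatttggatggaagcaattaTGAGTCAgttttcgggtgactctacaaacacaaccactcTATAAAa
Mmp10 (GRCm38.p6, chr9:7502092-7502341, plus strand): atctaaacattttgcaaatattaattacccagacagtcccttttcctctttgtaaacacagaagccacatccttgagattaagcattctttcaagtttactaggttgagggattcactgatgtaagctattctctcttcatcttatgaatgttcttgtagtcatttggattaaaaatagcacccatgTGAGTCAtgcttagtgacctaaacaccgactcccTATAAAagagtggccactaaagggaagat
Mmp13 (GRCm38.p6, chr9:7272264-7272513, plus strand): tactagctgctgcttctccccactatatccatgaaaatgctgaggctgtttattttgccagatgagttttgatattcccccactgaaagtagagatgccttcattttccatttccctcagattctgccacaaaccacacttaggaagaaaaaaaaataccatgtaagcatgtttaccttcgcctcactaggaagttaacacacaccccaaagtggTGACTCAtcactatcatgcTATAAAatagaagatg
Mmp7 (GRCm38.p6, chr9:7691840-7692089, plus strand): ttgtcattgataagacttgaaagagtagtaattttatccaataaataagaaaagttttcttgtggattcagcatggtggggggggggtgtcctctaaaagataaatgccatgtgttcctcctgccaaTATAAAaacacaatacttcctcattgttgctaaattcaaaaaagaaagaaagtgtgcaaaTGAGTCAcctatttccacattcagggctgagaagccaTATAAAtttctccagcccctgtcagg
Mmp15 (GRCm38.p6, chr8:95352046-95352295, plus strand): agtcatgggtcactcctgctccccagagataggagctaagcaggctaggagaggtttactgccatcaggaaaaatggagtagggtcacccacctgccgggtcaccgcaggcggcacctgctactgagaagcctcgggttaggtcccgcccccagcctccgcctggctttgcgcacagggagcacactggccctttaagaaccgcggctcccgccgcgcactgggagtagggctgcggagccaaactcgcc

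In Mmp10 and Mmp7 the AP-1 letters start 63 bases before the transcript start, in Mmp3 46 bases and in Mmp13 35 bases. Of these genes, Mmp10 and Mmp13 were called lower in 3D, Mmp7 was called higher and Mmp3 was not called. Any part of these letters in the levels was not tested. A match describes the letters in this window and is no measurement of binding.

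**Figure D4:**
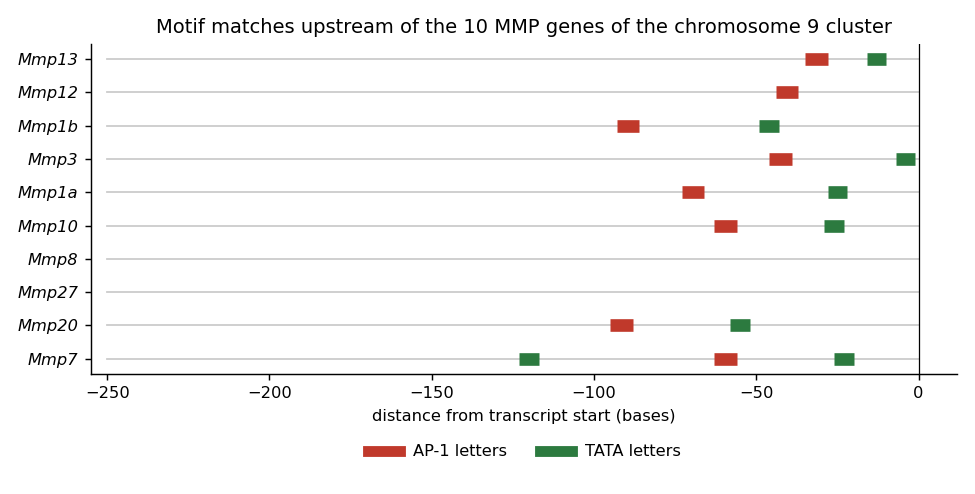
Matches to the AP-1 letters TGANTCA and the TATA letters TATAAA in the 250 bases before the transcript start (x axis, bases) of the 10 MMP genes of the chromosome 9 cluster, in chromosomal order. The AP-1 letters appear in 8 genes, 35 to 95 bases before the start, and Mmp8 and Mmp27 hold neither motif. For Mmp12 the match stands before a start that lies 2993 bases from the annotated one.

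Mmp13, the main interstitial collagenase of rodents, was at 1.32, 17.1, 17.4 and 0.797 normalized FPKM in 2D. It was listed at 0 in the 3D libraries from mice 1 and 4 and was at 0.0290 and 0.0256 in those of mice 5 and 7. The log2 difference was -2.59 (standard error 0.81, limma's adjusted p = 0.0359). Its culture types did not overlap, but the 2D libraries from mice 3 and 4 stood far above the other pair. The call was lost on the values as deposited, with only mice 4 and 5, and without the 2D library from mouse 3 or 4 or any of the 3D libraries, with limma's adjusted p between 0.0715 and 0.0761 when a library was left out. Without both 2D libraries from mice 3 and 4 the log2 difference was -1.02 and limma's adjusted p was 9.5e-04.

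The stromelysins cut proteoglycans, laminin and other matrix proteins and activate procollagenases. Mmp3 was at 0.727, 7.86, 145 and 1.21 normalized FPKM in 2D and listed at 0 in all 3D libraries. Its groups did not overlap, but the spread within 2D was wide and limma's adjusted p was 0.0981 (log2 difference -3.07, standard error 1.30). Without the 2D library from mouse 4 the log2 difference was -1.69 and limma's adjusted p was 0.0438, and without the 2D libraries from mice 3 and 4 they were -0.98 and 9.6e-04. Mmp10 was at 4.48, 9.13, 7.38 and 1.98 normalized FPKM in 2D and at 0.0729 in the 3D library from mouse 4, and was listed at 0 in the other 3D libraries. It had a log2 difference of -2.58 (standard error 0.36, limma's adjusted p = 9.3e-04), with an adjusted p of 0.0760 with only mice 4 and 5. Mmp11, which lies outside the cluster and is unusual in leaving the cell already active, fell from a mean of 27.0 ± 7.12 to 2.20 ± 0.890 normalized FPKM (± SD, n = 4). Its log2 difference of -3.13 (standard error 0.26, limma's adjusted p = 6.7e-05) kept its call with only mice 4 and 5. The libraries of Mmp11 held 36.1, 18.9, 27.9 and 25.1 normalized FPKM in 2D and 1.47, 3.18, 2.73 and 1.43 in 3D.

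Mmp7, the matrilysin of epithelial glands, was at 0 throughout 2D and at 0.913, 0.485, 0.768 and 0.0971 normalized FPKM in 3D. The log2 difference was 0.62 (standard error 0.16, limma's adjusted p = 0.0166). Mmp7 overlaps AV064505 on the opposite strand. Its level was low, since 3 fragments on its transcript correspond to 0.162 to 0.172 deposited FPKM in 2D, and the 3D library from mouse 7 was within the range of a few fragments. Without the 2D libraries from mice 3 and 4, limma's adjusted p was 0.0826. The other genes of the cluster stayed low. Mmp8, a collagenase of neutrophils, reached 0.913 normalized FPKM in the 2D library from mouse 3 and was listed at 0 in 3D (limma's adjusted p = 0.140). Mmp12, the macrophage elastase, was at 0.267, 0.166, 0.205 and 0.0566 normalized FPKM in 2D and 0.00477, 0, 0 and 0 in 3D (log2 difference -0.23, limma's adjusted p = 0.0102). It overlaps Mmp1b on the opposite strand, and its adjusted p was 0.222 with only mice 4 and 5 and 0.0661 without the 2D libraries from mice 3 and 4. Mmp1a, which is annotated as a polymorphic pseudogene, its near copy Mmp1b, and Mmp27 reached at most 0.596 normalized FPKM in any library, and their adjusted p was between 0.141 and 0.451 in limma. Reads could be split between Mmp1a and Mmp1b, so their values are uncertain.

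The macrophage markers did not move as a group. Cd14 and Cd68 were higher in 3D, and the other 4 were not called. Adgre1 and Lyz2 were listed at 0 in every 3D library. In 2D Adgre1 did not exceed 0.476 normalized FPKM and Lyz2 ranged from 0.227 to 18.7. Limma's adjusted p was 0.351 for Adgre1 and 0.0894 for Lyz2. Csf1r had a mean of 0.868 normalized FPKM in 2D and 4.32 in 3D, with overlapping libraries (limma's adjusted p = 0.129). The summed level of the 6 macrophage markers was 5.41 to 24.8 normalized FPKM in 2D and 124 to 170 in 3D. Most of the 3D sum was Cd14 alone, at 164, 81.7, 115 and 114 normalized FPKM. Ptprc did not exceed 0.0779 normalized FPKM in any library.

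Among the MMPs outside these classes, Mmp23 and Mmp19 fell most. Mmp23, a small membrane-anchored protease that lacks the usual hemopexin domain, was at 30.4, 37.2, 16.6 and 31.6 normalized FPKM in 2D and at 0.349, 0.516, 0.389 and 1.12 in 3D. Its log2 difference was -4.20 (standard error 0.27, limma's adjusted p = 2.1e-05). Mmp19, which cuts basement membrane proteins, fell from a mean of 13.8 ± 4.62 to 0.251 ± 0.212 normalized FPKM (± SD, n = 4), a log2 difference of -3.53 (standard error 0.25, limma's adjusted p = 3.1e-05). Its libraries were at 9.59, 10.9, 19.9 and 14.7 normalized FPKM in 2D and 0.152, 0.105, 0.181 and 0.565 in 3D. In both genes the culture types stood wide apart in each library. Mmp28 (epilysin) fell from a mean of 1.36 ± 0.203 to 0.374 ± 0.137 normalized FPKM (± SD, n = 4), a log2 difference of -0.78 with limma's adjusted p of 7.0e-04, or 0.0642 with only mice 4 and 5. It measured 1.44, 1.61, 1.18 and 1.21 normalized FPKM in 2D and 0.244, 0.546, 0.287 and 0.420 in 3D. Mmp21 did not exceed 0.361 normalized FPKM in any library (limma's adjusted p = 0.107, or 0.0465 with a pseudocount of 0.1).

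Of the 3 ADAMTS genes that process procollagen, 2 fell to near 0 in 3D. Adamts2, which removes the N-terminal propeptide of type I, II and III procollagens, was at 6.30, 23.6, 22.0 and 12.4 normalized FPKM in 2D and at 0, 0, 0.0143 and 0.00925 in 3D. Adamts14, a close relative with the same activity, was at 9.26, 9.52, 3.89 and 4.49 normalized FPKM in 2D and at 0.00344, 0.0338, 0.0164 and 0.0112 in 3D. The log2 differences were -3.93 (standard error 0.38) and -2.85 (standard error 0.28), with limma's adjusted p of 1.5e-04 and 1.6e-04. In both genes all 3D libraries were at or under the level that 3 fragments would give. Adamts3, the third of this group, reached at most 0.839 normalized FPKM, in the 2D library from mouse 3, and its groups overlapped (limma's adjusted p = 0.124). Its adjusted p in limma was 0.0471 with a pseudocount of 0.1 and 0.0396 with only mice 4 and 5.

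The ADAMTS genes whose products cut proteoglycans such as aggrecan and versican split into falling and rising genes. Adamts5 was at 8.72, 22.1, 36.3 and 19.9 normalized FPKM in 2D and at 0.259, 1.14, 1.69 and 0.0895 in 3D (log2 difference -3.61, standard error 0.46, limma's adjusted p = 6.2e-04). Adamts4 fell from a mean of 10.6 ± 2.44 to 0.703 ± 0.537 normalized FPKM (± SD, n = 4), a log2 difference of -2.80 (standard error 0.27, limma's adjusted p = 1.6e-04). Its levels were 12.1, 11.1, 7.06 and 12.3 normalized FPKM in 2D and 0.243, 1.40, 0.857 and 0.318 in 3D. Neither of these 2 aggrecanases showed an overlap between the culture types. Adamts1, the neighbour of Adamts5 on chromosome 16, was instead at 9.57, 15.3, 27.7 and 16.2 normalized FPKM in 2D and at 31.1, 33.3, 41.0 and 22.7 in 3D. It was the most abundant ADAMTS gene in 3D, with 63.7% to 77.2% of the summed ADAMTS level against 8.16% to 19.9% in 2D.

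The rise of Adamts1 was small next to its spread. Limma gave a log2 difference of 0.92 (standard error 0.31, limma's adjusted p = 0.0439), and the 2D library from mouse 4 lay above the 3D library from mouse 7. On the values as deposited the call was lost, and it was lost when the 2D library from mouse 2, 3 or 5 or the 3D library from mouse 1, 4 or 5 was left out, with limma's adjusted p between 0.0777 and 0.108. The adjusted p in limma was 0.0514 without the intensity trend and 0.179 with only mice 4 and 5. Adamts9 was at 0.725, 7.78, 4.80 and 0.643 normalized FPKM in 2D and at 4.05, 7.05, 18.2 and 7.46 in 3D, with a limma adjusted p of 0.134. Its groups overlapped through the 2D libraries from mice 3 and 4, and without these the log2 difference was 2.42 and limma's adjusted p was 0.0136. Adamts15 was at 0, 0.0187, 0.189 and 0.0259 normalized FPKM in 2D and at 0.9754, 0.628, 0.804 and 0.220 in 3D. It rose by 0.63 on the log2 scale (standard error 0.15, limma's adjusted p = 0.0104), from a level near 0. Adamts8 and Adamts20 did not exceed 0.212 normalized FPKM anywhere.

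Adamts12 and Adamts7, whose products cut cartilage oligomeric matrix protein, had log2 differences of -4.09 (standard error 0.40, limma's adjusted p = 1.7e-04) and -1.34 (standard error 0.27, limma's adjusted p = 0.00533). Adamts12 was at 28.8, 6.56, 15.2 and 23.1 normalized FPKM in 2D and at 0, 0, 0.0236 and 0.0100 in 3D, at or under the level of 3 fragments. Adamts7 was at 1.33, 3.18, 2.75 and 0.738 normalized FPKM in 2D and 0.122, 0.137, 0.0990 and 0.0876 in 3D, and its adjusted p was 0.143 with only mice 4 and 5. Adamts6 and Adamts10, a related pair that binds fibrillin microfibrils, both fell. Adamts6 was at 27.0, 10.7, 10.4 and 28.5 normalized FPKM in 2D and at 0.0346, 0.348, 0.134 and 0.219 in 3D (log2 difference -3.95, limma's adjusted p = 1.2e-04). Adamts10 fell from a mean of 10.03 ± 2.63 to 0.516 ± 0.201 normalized FPKM (± SD, n = 4), with a log2 difference of -2.84 and limma's adjusted p of 3.9e-05. The libraries of Adamts10 were at 11.6, 7.60, 8.02 and 12.9 normalized FPKM in 2D and 0.814, 0.422, 0.450 and 0.377 in 3D, again without overlap.

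The remaining genes were low in both culture types. Adamts16 had a normalized FPKM between 0.0744 and 0.801 in 2D and between 0.00955 and 0.0935 in 3D, and its groups overlapped. It had a log2 difference of -0.42 (limma's adjusted p = 0.0450), and the call was lost when any library other than the 2D library from mouse 4 was left out, with adjusted p-values of 0.0599 to 0.0973. It was also lost without the intensity trend (limma's adjusted p = 0.0565) and with only mice 4 and 5 (0.387). Adamts13, the protease of von Willebrand factor, had a normalized FPKM between 0.357 and 0.859 in 2D and between 0.767 and 1.69 in 3D (limma's adjusted p = 0.230). On the values as deposited its log2 difference was 0.53, with a limma adjusted p of 0.0423. Adamts17 and Adamts18 reached at most 0.204 and 0.675 normalized FPKM. Limma's adjusted p was 0.367 for Adamts17, or 0.00844 without the 2D library from mouse 2, and 0.304 for Adamts18.

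The members were also compared between the pairs of 2D libraries that the mesothelial markers set apart. Of the 25 members that reached 1 normalized FPKM in a 2D library, 9 were higher in both mice 3 and 4 than in mice 2 and 5, 7 were lower in both and 9 were mixed. Over all genes that reached this level, 29.8% were higher and 35.1% were lower in both, so the members' counts lay near those of all genes. Mmp13, Mmp3, Adamts9 and Timp2 were 12.98, 6.51, 6.62 and 4.67 times as high in the lower of mice 3 and 4 as in the higher of mice 2 and 5. Timp1, Adamts6 and Adamts12 showed the opposite order, with ratios of 1.69, 2.52 and 1.52 between the nearest libraries. Timp1 held 71.0% and 70.5% of the TIMP sum in mice 2 and 5 and 25.7% and 30.7% in mice 3 and 4. The 3D libraries showed no Mmp3 and at most 0.0290 normalized FPKM of Mmp13. The genes described here were chosen after their values were seen, and the order of 2 libraries against 2 is given with no test.

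**Figure D5:**
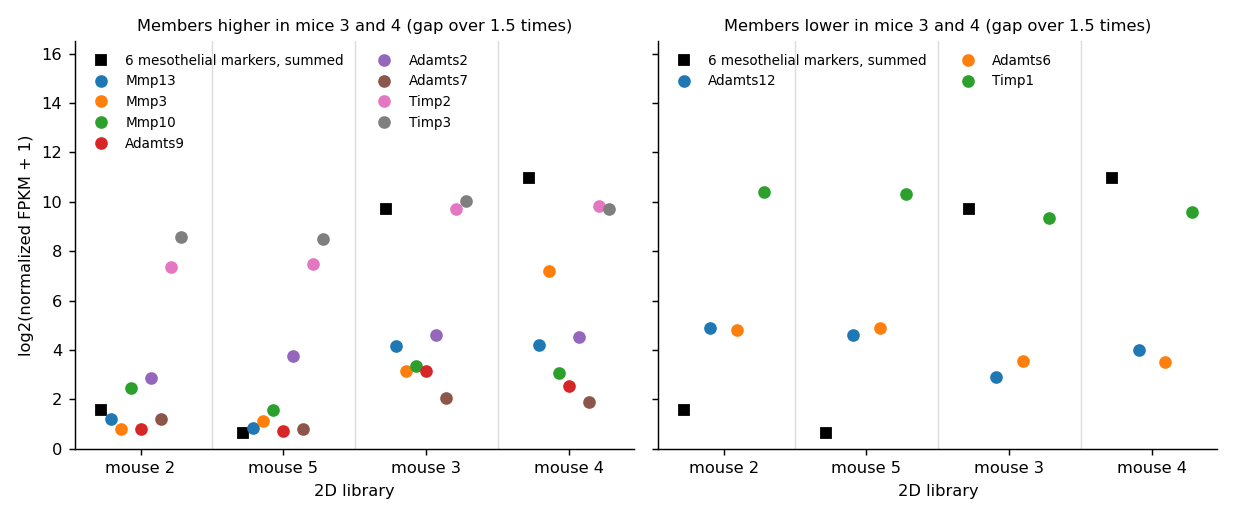
Levels in the 4 2D libraries, as log2(normalized FPKM + 1), of members for which both libraries from mice 3 and 4 lie above (left) or below (right) both libraries from mice 2 and 5 by more than 1.5 times. Black squares give the summed level of 6 mesothelial markers, which is 846 and 2028 normalized FPKM in mice 3 and 4 and at most 1.99 in mice 2 and 5.

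Genes that activate, anchor, process or resemble these proteases were examined as a list of 43 genes, of which 41 were tested. By limma's adjusted p, 15 of these genes were lower and 5 were higher in 3D, against 20.3% and 21.2% of all genes, and the median log2 difference was -0.19. With the mouse as a block, 0 genes of this list passed, and 13 lower and 3 higher genes had an unadjusted p below 0.05. The largest falls were those of Pcolce, which enhances procollagen C-propeptide cleavage, Adam19, a membrane-bound disintegrin protease, and Vcan, the proteoglycan substrate versican. Pcolce fell from a mean of 255 ± 56.5 to 0.354 ± 0.0661 normalized FPKM (± SD, n = 4), a log2 difference of -7.54. Adam19 and Vcan had log2 differences of -5.53 and -5.23, and limma gave all 3 genes an adjusted p of at most 6.9e-06.

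The 5 genes that were higher were Papln, Adam8, Plau, Bsg and Adam17, of which Bsg and Adam17 were named after their values were seen. Papln encodes papilin, a matrix protein related to the ADAMTS family, and had a 2D level of 0.312 ± 0.270 and a 3D level of 5.71 ± 3.25 normalized FPKM (SD, n = 4). Its log2 difference was 2.24 (standard error 0.37, limma's adjusted p = 0.00221). Adam8, a disintegrin protease known from leukocytes, and Plau, the urokinase that generates plasmin, had log2 differences of 1.59 and 1.15 with limma's adjusted p of 0.0450 and 0.0484. The culture types overlapped for Plau. Its 3D library from mouse 1 (26.9 normalized FPKM) lay below the 2D libraries from mice 3 and 5 (29.3 and 28.7). Bsg (basigin, a surface inducer of MMPs) and Adam17 (a sheddase that TIMP3 inhibits) rose by 0.90 and 0.89 on the log2 scale, with limma's adjusted p of 0.00911 and 4.1e-04.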

How the data were processed

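The deposited files give FPKM values per gene for 8 libraries, without read counts. Per the labels and the methods of the study, the authors removed ribosomal RNA, made directional libraries, trimmed reads (FASTX_Trimmer, BBMap), mapped these to mm10 with TopHat and computed FPKM with Cufflinks. Whether Cufflinks used the strand is not given in the sources used here. The authors' methods name a quantile normalization as the next step. The deposited values do not include it, so it was applied here with limma over 18862 genes above 0 in at least 1 library (5484 were at 0).

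Values were converted to log2(FPKM + 1), and 3D was compared with 2D in limma 3.58.1 (R 4.3.3) with an intensity trend and without covariates. Benjamini-Hochberg adjustment ran over all genes tested. Reads may be shared with overlapping genes for the 21 members that overlap a gene on the opposite strand, among them Timp1, Timp3, Adamts4, Mmp11, Mmp7 and Mmp19, and for Timp2 and Adamts17, which overlap a gene on the same strand. The fit was tested on simulated data. All members were described, with values by library for called members whose culture types did not overlap, and of the related genes the 3 largest rises and falls among those called were named. The members, the lists and the settings were chosen with earlier results of these data known.

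The depth per library, 14.5 M to 17.3 M fragments, was estimated from low values of 875 genes to which GENCODE M21 gives 1 transcript, 3000 nt or longer. Between 69.2% and 81.5% of these values lay within 0.15 of a whole multiple. Such limits cover counting error only. Positions are those of GENCODE M21 (GRCm38), and 14 of the 46 genes had no upstream window in the RefSeq table. The labels pair mice 4 and 5 across the cultures, and over 12583 genes the deviations of their 2 libraries from the culture means correlated at -0.05 and -0.11. Each library came from 1 culture of 1 mouse as far as the labels tell, and p-values measure the spread between these libraries. The alternatives left out each library in turn, kept only mice 4 and 5, entered the mouse as a random effect or as a block, added 0.1 in place of 1, required a mean FPKM of 1 or more, used no intensity trend, or took the values as deposited. Leaving out the 2D libraries from mice 3 and 4 was added after seeing the data. Protein sequences were not used here.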

Additional observations from a re-analysis of the deposited data

Results flagged for a closer look

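Of 43 groups of 4 libraries tested for a library far from the rest, 2 held one, and chance gives about 1 in 20. Mmp3 reached 145 normalized FPKM in the 2D library from mouse 4, against 0.727 to 7.86 in the other 2D libraries. In the same library Mmp17 was low, at 2.79 normalized FPKM against 10.1 to 11.3. This library also had the highest summed level of mesothelial markers (2028 normalized FPKM), and the part of these cells in either value was not tested.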

How the results depend on the processing

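With the mouse as a block, 0 members, 0 related genes and 0 of all genes passed limma's adjusted threshold in either direction, while 2833 genes were higher and 2383 lower at an unadjusted p below 0.05. In the fit of mice 4 and 5 alone, 14 members were lower, 3 related genes higher, and 1788 of all genes higher and 1432 lower. With genes of a mean of at least 1 FPKM, 22 members were tested and 2 were higher, since fewer genes entered. The related genes that were higher numbered 3 on the values as deposited and without the intensity trend. When each library was left out, between 20 and 24 members were lower and 3 to 4 higher, 15 to 17 related genes were lower and 3 to 4 higher, and of all genes 3204 to 3835 were lower and 3393 to 4051 higher. The mean MMP sum in 2D was 542 FPKM as deposited. None of the 28 called members changed sign under any alternative that gave it a value (members below a mean of 1 FPKM had none under that filter), and 15 kept their call in all of those run other than the block. Without the 2D libraries from mice 3 and 4, the log2 differences of Mmp24 (0.0139), Adamts8 (-0.00937) and Adamts17 (-0.00113) changed sign, with limma's adjusted p between 0.891 and 0.991. The depth limits genes at low levels, where differences rest on a few fragments. This level depends on transcript length. On a transcript of 1 kb, 3 fragments correspond to 0.173 to 0.207 FPKM, and on the longer transcript of Adamts12 to 0.0225 to 0.0241 in 3D.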
